A study of Homo sapiens with 47 samples.

Results

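This comparison set the microRNA (miRNA) content of PC-3 cells against that of 22Rv1 cells, both grown in normoxia. PC-3 and 22Rv1 are human prostate cancer cell lines. Per the labels, PC-3 comes from a bone metastasis and 22Rv1 from a primary tumour carried as a subline of the CWR22R xenograft. PC-3 is known to lack the androgen receptor, and 22Rv1 is known to express it. The members were chosen by label alone. All normoxia libraries were taken and no hypoxia library, which gave 23 of the 47 libraries of the series, 12 from PC-3 and 11 from 22Rv1. All were kept in 95% air and RPMI-1640 medium with 10% serum, and none carried a gene edit or a drug. Each line had 6 control sets, grown beside cultures at 5, 2, 1, 0.5, 0.2 and 0% O2, with 2 replicates a set except for the 22Rv1 control of 0.2% O2, of which 1 library was used. A group here is 1 cell line, so a difference between the lines is a difference between these cultures and need not hold for other androgen receptor-negative or androgen receptor-positive tumours. The labels do not say whether replicates were separate cultures. The p-values therefore measure spread among these samples alone, and that spread may be technical.

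A miRNA is cut from a hairpin precursor, and either strand of the hairpin, the 5p arm or the 3p arm, can be loaded into an Argonaute protein. The loaded strand pairs with messenger RNAs mainly through its seed, the bases from position 2 to position 8 counted from its 5′ end. miRNAs that share a seed are therefore expected to share many targets even when they come from different chromosomes. In prostate cancer the miR-221 and miR-222 pair is known for targeting the cell cycle inhibitor CDKN1B, and the miR-200 family is known for targeting the ZEB1 and ZEB2 repressors of epithelial genes.

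The mature sequences on which the comparison turned are given below, 5′ to 3′, with the seed in capitals. They are RefSeq sequences (GRCh38.p14), matched by name for 868 of the 1006 entries in the count table. The first 5 share their seeds across loci that were used differently by the lines, the miR-200 family. miR-200b-3p and miR-200c-3p differ at 2 of 22 positions, and miR-200a-3p and miR-141-3p also at 2 of 22, in each case with an identical seed.
miR-200b-3p: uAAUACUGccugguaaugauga
miR-429: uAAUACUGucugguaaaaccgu
miR-200c-3p: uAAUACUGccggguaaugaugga
miR-200a-3p: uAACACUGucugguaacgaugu
miR-141-3p: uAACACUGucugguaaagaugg

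The next sequences belong to miRNAs with large differences and to their closest relatives by seed. miR-100-5p and miR-99a-5p differ at 1 of 22 positions, as do miR-196a-5p and miR-196b-5p. miR-221-3p and miR-222-3p differ, without gaps, at 10 of 21 positions outside the seed.
miR-100-5p: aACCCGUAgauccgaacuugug
miR-99a-5p: aACCCGUAgauccgaucuugug
miR-221-3p: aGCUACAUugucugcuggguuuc
miR-222-3p: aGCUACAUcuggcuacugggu
miR-31-5p: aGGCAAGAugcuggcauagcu
miR-148a-3p: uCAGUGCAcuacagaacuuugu
miR-148b-3p: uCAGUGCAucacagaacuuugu
miR-152-3p: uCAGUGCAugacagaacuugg
miR-196a-5p: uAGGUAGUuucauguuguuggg
miR-196b-5p: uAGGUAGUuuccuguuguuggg
miR-363-3p: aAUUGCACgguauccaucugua
miR-92a-3p: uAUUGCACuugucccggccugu

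The PC-3 libraries held 1742290 to 4327382 counts (median 2874342) and the 22Rv1 libraries 960421 to 3134769 (median 2453208). The 5 most abundant entries took 41.5 to 45.9% of a PC-3 library and 40.8 to 53% of a 22Rv1 library. One 22Rv1 library, replicate 1 of the control of 5% O2, stood apart. It had 960421 counts where the other 10 had at least 2051873, and its top 5 entries took 53% where the others reached at most 46.1%. Its chi-square per degree of freedom against its own replicate was 289, and that of the other 10 replicate pairs was 29.1 to 57.4. Leaving it out kept 448 of the 449 calls below with their direction. Levels are CPM, the counts of an entry relative to its library's effective size. That size was set over the 23 libraries with edgeR's TMM method, which trims extreme ratios before averaging. Log2 differences are PC-3 minus 22Rv1. The SE of an edgeR difference is its absolute size over the square root of the test's F value. It can understate the error where a line held few counts.

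The lines differed in most of the miRNAs that could be tested. An entry entered the test when 10 or more libraries held 5 CPM or more of it, which left 498 of 1006 and set aside 508. edgeR's quasi-likelihood test called 449 of the 498 at a Benjamini-Hochberg adjusted p below 0.05, which is 90.2%. Of these, 206 were higher in PC-3 (41.4% of those tested) and 243 higher in 22Rv1 (48.8%). A difference of at least 2-fold was called for 136 in PC-3 (27.3%) and 155 in 22Rv1 (31.1%), and one of at least 16-fold for 50 and 45. For 321 of the 498 (64.5%) no library of one line overlapped any library of the other. With these shares as background, a single call says little, and the sizes below carry the description. Of the 498, 39 were under 5 CPM in every 22Rv1 library and 59 in every PC-3 library. These were taken as passing the filter through the other line, which fixed their direction. They include the 4 tested entries of MIR100HG, the 2 of GABRE, 2 of 4 of MIR222HG, 2 of 4 of MIR200CHG, 3 of 4 of GABRA3 and 2 of 5 of the mir-200b, mir-200a and mir-429 locus. They also include 2 of 5 of the mir-363 cluster of the X chromosome, both under 5 CPM in every PC-3 library.

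How libraries were scaled moved all differences together. Relative to TMM, the median over all miRNAs moved by -0.36 (log2) with library size alone, by -0.20 with upper quartile scaling and by 0.17 with the authors' factors. Calls then numbered 163 in PC-3 against 279 in 22Rv1 with library size and 184 against 267 with upper quartile scaling. With the authors' factors 214 were called in 22Rv1, fewer than in PC-3. Calls with the same direction under these 3 scalings and DESeq2 numbered 377 of 449, 163 higher in PC-3 and 214 higher in 22Rv1. Differences under about 0.4 on the log2 scale are thus within what scaling decides.

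**Figure D1:**
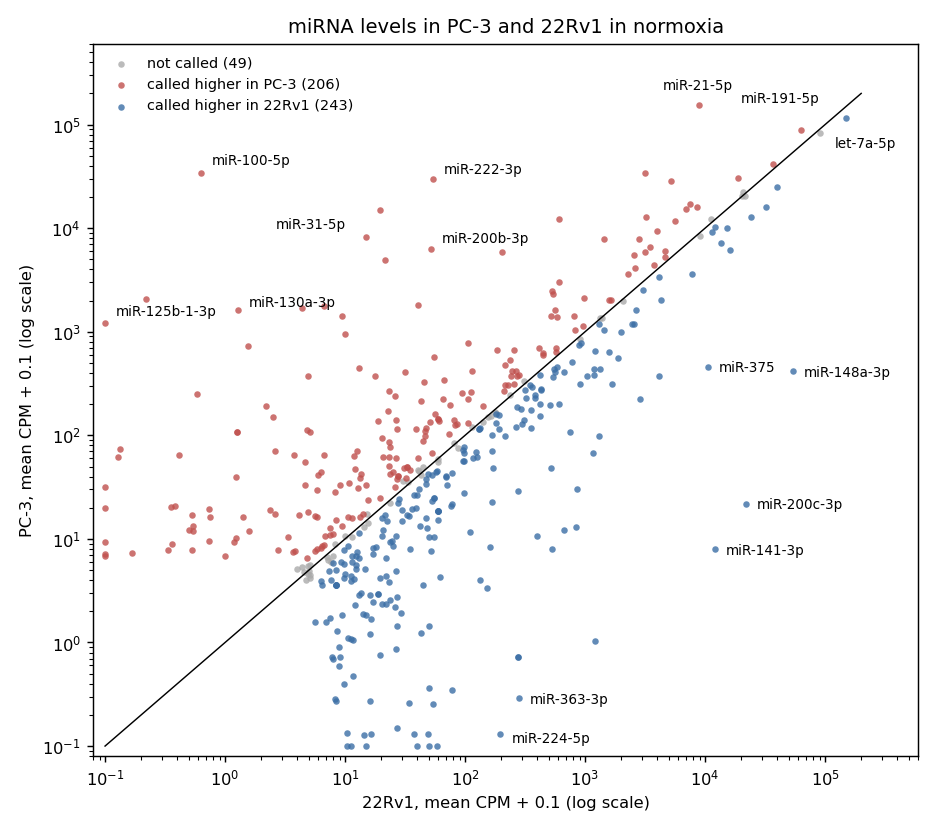
Mean CPM of the 498 tested miRNAs in PC-3 (vertical axis) and 22Rv1 (horizontal axis), both log scales with 0.1 added, coloured by the edgeR call (206 higher in PC-3, 243 higher in 22Rv1, 49 not called). miR-100-5p and miR-125b-1-3p lie far above the line of equal level, and miR-141-3p, miR-200c-3p and miR-224-5p far below it.

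The largest differences toward PC-3 came from 1 locus on chromosome 11, the host RNA MIR100HG, which carries mir-100, let-7a-2 and mir-125b-1. miR-100-5p (hairpin at chromosome 11, 122152229 to 122152308, minus strand, GENCODE 29 on GRCh38) is known for targeting the kinase MTOR. It stood at 24559, 33850 and 39850 CPM (lowest, median and highest library) in PC-3 and at 0, 0.605 and 1.10 CPM in 22Rv1. Every PC-3 library was thus above every 22Rv1 library by 4 orders of magnitude or more, and miR-100-5p was the sixth most abundant miRNA of PC-3 (3.07% of its counts). Its log2 difference was 15.72 (adjusted p 4.1e-40, edgeR), resting on 18 counts in all 22Rv1 libraries together. The opposite arm, miR-100-3p, had 1504, 2080 and 2582 CPM in PC-3 and 3 counts in 22Rv1, a ratio of 21205 (95% counting interval 7256 to 102826). These 3 counts were in replicate 2 of the control of 2% O2, and the other 10 libraries of 22Rv1 had none.

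The other hairpins of the locus showed the same pattern. miR-125b-1-3p had 979, 1193 and 1502 CPM in PC-3 and no count in any 22Rv1 library, so it was at least 12417-fold higher in PC-3 with 3 counts over the group as the floor. let-7a-2-3p had 41.7, 62.5 and 78.3 CPM in PC-3 and 1 count in 22Rv1. The paralogous locus on chromosome 21, host RNA MIR99AHG with mir-99a, let-7c and mir-125b-2, differed less and in the other direction. miR-99a-5p had a median of 40.4 CPM in PC-3 and 40.3 CPM in 22Rv1, let-7c-5p 247 and 334 CPM, and miR-125b-2-3p 32.3 and 44.9 CPM. The libraries of the lines overlapped for these 3, and each was called higher in 22Rv1 by edgeR, at log2 differences of -0.31, -0.63 and -0.47. The call of miR-99a-5p was lost with the authors' factors and with DESeq2.

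miR-125b-5p, known for targeting pro-apoptotic genes, can come from both loci. Its levels were 4021, 5002 and 6134 CPM in PC-3 and 12.1, 21.2 and 42.2 CPM in 22Rv1. The ranges did not overlap, and the log2 difference was 7.91 (SE 0.15, adjusted p 6.3e-29, edgeR). Its partner arms separate the loci. The arm from mir-125b-1 was seen in PC-3 and had no count in 22Rv1, while the arm from mir-125b-2 was seen in both lines, at overlapping levels.

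**Figure D2:**
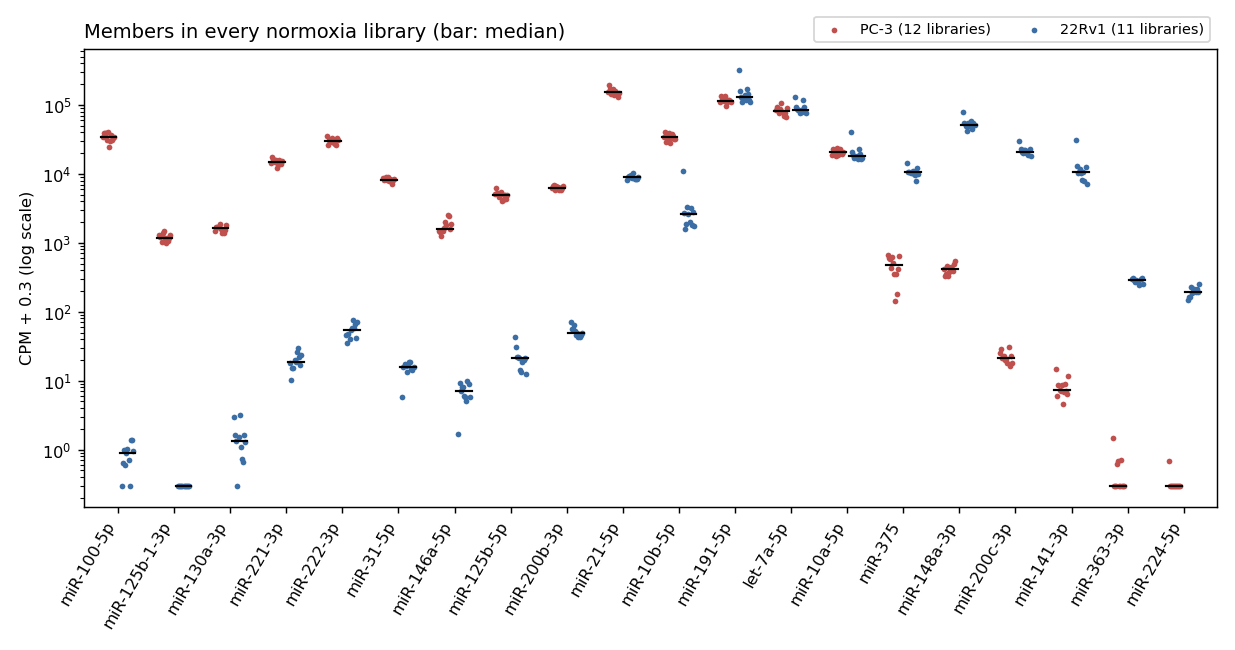
CPM of 20 miRNAs in each of the 12 PC-3 and 11 22Rv1 libraries (log scale, 0.3 added), with the median as a bar. The lines do not overlap for 17 of the 20, and overlap for miR-191-5p, let-7a-5p and miR-10a-5p; the 22Rv1 library that lies high for miR-191-5p, miR-10b-5p, miR-10a-5p and miR-141-3p is replicate 1 of the control of 5% O2.

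The miR-221 and miR-222 hairpins lie next to each other on the X chromosome in the host RNA MIR222HG. miR-222-3p stood at 26052, 29520 and 34892 CPM in PC-3 and at 35, 53.5 and 74.6 CPM in 22Rv1. miR-221-3p stood at 12074, 15006 and 17638 CPM in PC-3 and at 10.1, 18.2 and 29.9 CPM in 22Rv1. Neither overlapped, with log2 differences of 9.11 (SE 0.13) and 9.59 (SE 0.14) and adjusted p of 3.9e-36 and 1.8e-36 (edgeR). The minor arms moved with them. miR-221-5p had a median of 725 CPM against 1.21 CPM, and miR-222-5p had 72.7 CPM against 1 count in all 22Rv1 libraries.

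miR-31 comes from the short arm of chromosome 9, near the CDKN2A tumour suppressor gene. miR-31-5p stood at 7114, 8261 and 9124 CPM in PC-3 and at 5.44, 15.7 and 18.3 CPM in 22Rv1, a log2 difference of 9.07 (SE 0.10). miR-31-3p followed at a median of 240 against 0.291 CPM. miR-130a-3p belongs to a large family that includes miR-301 and miR-454. It had 1381, 1632 and 1871 CPM in PC-3 and 0, 1.02 and 2.86 CPM in 22Rv1 (log2 difference 10.48). miR-584-5p, from an intron of SH3TC2, had a median of 1708 against 4.60 CPM. None of these overlapped between the lines.

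miR-146a-5p, which dampens NF-kappaB signalling through IRAK1 and TRAF6, had 1240, 1609 and 2548 CPM in PC-3 and 1.36, 6.80 and 9.54 CPM in 22Rv1. miR-146b-5p, which shares its seed and comes from chromosome 10, went the other way, with a median of 1170 CPM in PC-3 and 2290 CPM in 22Rv1. The sum over that seed was 2848 CPM against 2296 CPM in the median library, with overlapping ranges and a log2 difference of 0.25 (SE 0.08, adjusted p 0.0032, edgeR). The 249-fold difference of miR-146a-5p was not seen in the seed sum. miR-146b-5p was picked for this contrast after its values were seen.

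miR-21-5p, an abundant oncogenic miRNA that targets PDCD4, was the most abundant miRNA of PC-3 at 13.9% of its counts. It stood at 129993, 152373 and 194970 CPM in PC-3 and at 8133, 8896 and 10287 CPM in 22Rv1 (log2 difference 4.13, SE 0.08, adjusted p 3.9e-33, edgeR). miR-10b-5p, from the HOXD cluster and known for promoting invasion, stood at 27794, 33734 and 40187 CPM in PC-3 and at 1569, 2636 and 10861 CPM in 22Rv1. The 10861 CPM belong to the 22Rv1 library that stood apart, and the other 10 were at 1569 to 3310 CPM. miR-24-3p stood at 26268, 28563 and 31988 CPM in PC-3 and at 4005, 5220 and 6085 CPM in 22Rv1. Of the 10 most abundant miRNAs of each line, 4 were shared (miR-182-5p, miR-22-3p, miR-191-5p and let-7a-5p).

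The largest differences toward 22Rv1 included the chromosome 12 locus of the miR-200 family, host RNA MIR200CHG. miR-200c-3p (hairpin at chromosome 12, 6963699 to 6963766, plus strand) stood at 18325, 20926 and 29816 CPM in 22Rv1 and at 16.3, 20.9 and 30.2 CPM in PC-3. Its log2 difference was -9.95 (SE 0.12, adjusted p 8.7e-39, edgeR). miR-141-3p stood at 7178, 10520 and 31192 CPM in 22Rv1 and at 4.27, 6.92 and 14.3 CPM in PC-3 (log2 difference -10.58, SE 0.31). The highest value was again the library that stood apart, with the other 10 at 7178 to 12822 CPM. No library of PC-3 overlapped one of 22Rv1.

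The chromosome 1 locus of the same family went the other way. miR-200b-3p (hairpin at chromosome 1, 1167104 to 1167198, plus strand) stood at 5748, 6321 and 6870 CPM in PC-3 and at 42.2, 49.6 and 70.7 CPM in 22Rv1, a log2 difference of 6.94 (SE 0.09, adjusted p 4.6e-38, edgeR). miR-200a-3p stood at 1635, 1837 and 2081 CPM in PC-3 and at 25.7, 37.3 and 81.6 CPM in 22Rv1. miR-429 had a median of 364 against 4.37 CPM. All 5 tested entries of the chromosome 1 locus were called higher in PC-3 (41.4% of all tested were), with a median of 6.58. All 4 of the chromosome 12 locus were called higher in 22Rv1 (48.8% of all tested), with a median of -10.06. Both directions held under the 4 scalings and DESeq2.

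Because the loci share seeds, each line held both seeds, from a different chromosome. For the seed AAUACUG, miR-200b-3p made up 94.1% of the CPM in PC-3 and 0.240% in 22Rv1, and miR-200c-3p 0.325% and 99.7%. For the seed AACACUG, miR-200a-3p made up 99.6% in PC-3 and miR-141-3p 99.7% in 22Rv1. The sums differed less than the members. The AAUACUG sum was 6084, 6750 and 7327 CPM in PC-3 and 18379, 20988 and 29888 CPM in 22Rv1 (log2 difference -1.70, SE 0.06, adjusted p 1.6e-23, edgeR). The AACACUG sum was 1641, 1848 and 2090 CPM against 7204, 10561 and 31274 CPM (log2 difference -2.74, SE 0.19). Both sums were higher in every 22Rv1 library than in any PC-3 library.

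**Figure D3:**
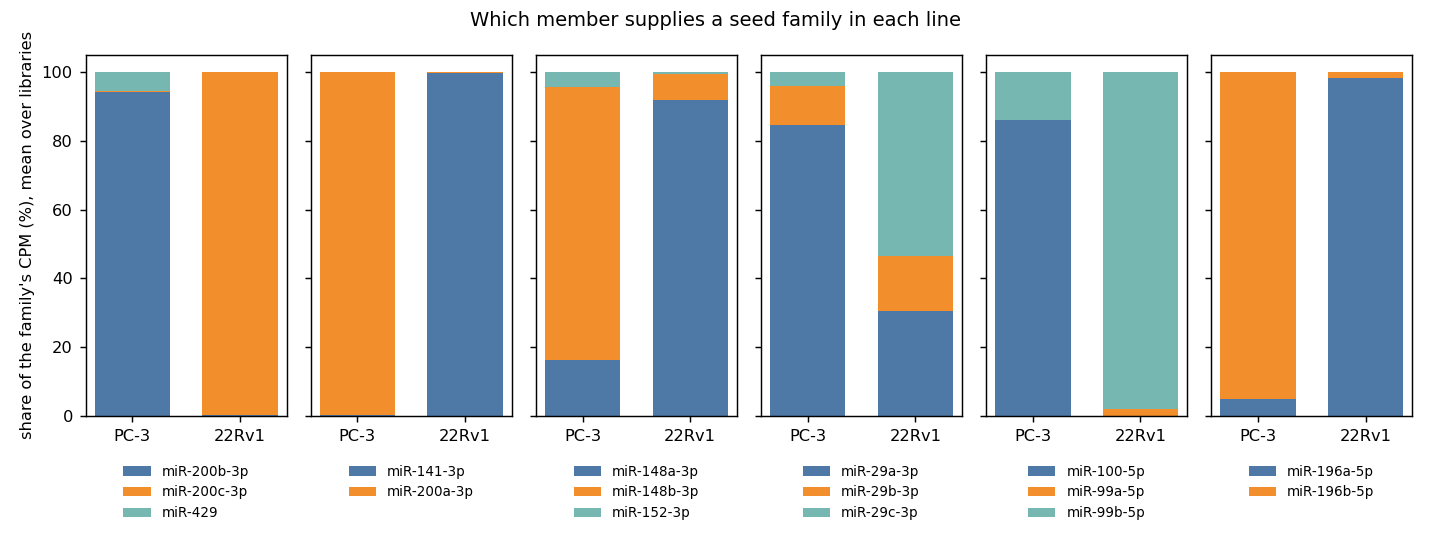
Share of each seed family's CPM (percent, mean over the 12 PC-3 or 11 22Rv1 libraries) held by each member, as stacked bars for 6 families. miR-200b-3p gives way to miR-200c-3p, miR-200a-3p to miR-141-3p, miR-148b-3p to miR-148a-3p, miR-100-5p to miR-99b-5p and miR-196b-5p to miR-196a-5p between PC-3 and 22Rv1.

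miR-148a-3p, which has been reported as androgen-responsive and targets the cullin regulator CAND1, was the fourth most abundant miRNA of 22Rv1. It stood at 41593, 51760 and 79101 CPM in 22Rv1 and at 328, 412 and 537 CPM in PC-3, without overlap (log2 difference -7.02, SE 0.11, adjusted p 1.0e-34, edgeR). Its relatives differed less. miR-148b-3p had a median of 1997 CPM in PC-3 and 4323 CPM in 22Rv1, and miR-152-3p 123 and 351 CPM. All 6 tested entries of the family were called higher in 22Rv1, where 48.8% of all tested entries were. miR-148a-3p held 16.4% of the family's CPM in PC-3 and 91.9% in 22Rv1, and the sum differed by -4.51 (SE 0.09).

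miR-375, an islet and neuroendocrine miRNA that is also raised in luminal prostate cancer, stood at 7877, 10502 and 14288 CPM in 22Rv1 and at 145, 470 and 659 CPM in PC-3. miR-7-5p, which targets EGFR and is abundant in neuroendocrine tissue, stood at 3646, 4079 and 4565 CPM in 22Rv1 and at 336, 369 and 435 CPM in PC-3. Other neuronal or neuroendocrine-associated miRNAs went the other way. miR-218-5p, miR-153-3p and miR-153-5p were called higher in PC-3, at log2 differences of 3.36, 2.28 and 2.93. Of 12 such entries tested, 5 were called higher in PC-3 and 6 in 22Rv1. Of the 12, 1 was under 5 CPM in every 22Rv1 library and 1 in every PC-3 library. miR-203a-3p, a marker of epithelial differentiation, had a median of 837 CPM in 22Rv1 and 26.1 CPM in PC-3. miR-205-5p, a basal epithelial marker, had 10.3 CPM in 22Rv1 and 1321 CPM in PC-3.

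Some loci of the X chromosome went opposite to MIR222HG. miR-224-5p, from an intron of the GABA receptor gene GABRE, stood at 150, 196 and 251 CPM in 22Rv1 and had 1 count in all PC-3 libraries together. miR-452-5p of the same intron stood at 32, 39.8 and 46.2 CPM and had no count in PC-3, so it was at least 418-fold higher in 22Rv1. miR-363-3p, from the cluster with mir-106a, mir-18b, mir-20b and mir-19b-2, stood at 247, 284 and 305 CPM in 22Rv1. PC-3 held 6 counts of it (log2 difference -10.23, adjusted p 9.6e-33, edgeR). Of these counts 3 were in replicate 1 of the PC-3 control of 5% O2, and without that library the difference of miR-363-3p was -10.82. Within that cluster the differences ran from -10.23 for miR-363-3p over -5.50 for miR-20b-5p and -3.69 for miR-18b-5p to -1.83 for miR-106a-5p. miR-106a-5p differs from miR-17-5p of the chromosome 13 cluster at 1 of 23 positions, and miR-20b-5p from miR-20a-5p at 2 of 23. Whether reads of these relatives were counted for each other was not tested. miR-19b-3p, which also comes from the chromosome 13 cluster, was at 0.35 and was called higher in PC-3 except with library size alone.

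The miRNAs of GABRA3, a gene of the cancer-testis type on the X chromosome, were high in 22Rv1 as well. miR-767-5p stood at 381, 533 and 616 CPM there and at 1.23, 3.59 and 24.4 CPM in PC-3. PC-3 replicate 1 libraries held 1.72 to 24.4 CPM (median 13.5) and replicate 2 libraries 1.23 to 4.34 CPM (median 1.87), so the spread within PC-3 was wide. miR-105-5p showed the same, at 0.344 to 3.48 CPM in the replicate 1 and 0 to 0.959 CPM in the replicate 2 libraries of PC-3, against 32.6 to 64.3 CPM in 22Rv1. miR-767-3p had no count in PC-3 and was at least 166-fold higher in 22Rv1.

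Some miRNAs were restricted to a line by a strict rule, at least 10 CPM in every library of one line and under 1 CPM in every library of the other. For PC-3 these were 6 entries: miR-125b-1-3p, miR-222-5p, let-7a-2-3p, miR-935, miR-876-5p and miR-3919. miR-935, from CACNG8 on chromosome 19, had a median of 29.1 CPM and no count in 22Rv1, so it was at least 322-fold higher. For 22Rv1 there were 11. The 10 most abundant of these were miR-224-5p, miR-483-5p, miR-598-3p, miR-592, miR-383-5p, miR-200c-5p, miR-452-5p, miR-483-3p, miR-3180-5p and miR-135a-5p. Both arms of miR-483, which lies in an intron of the growth factor gene IGF2, were among them, at medians of 77.9 and 36.1 CPM with 7 and 1 counts in PC-3. miR-598-3p and miR-383-5p, both on chromosome 8, had medians of 59.7 and 52.1 CPM with no count in PC-3, at least 615-fold and 558-fold higher in 22Rv1. The entries miR-3180-3p and miR-3180, both at a median of 257 CPM in 22Rv1 and 0.720 CPM in PC-3, overlap in sequence and count nearly the same reads.

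Genomic clusters are described by counts, to be read beside the 41.4% of all tested entries called higher in PC-3 and the 48.8% higher in 22Rv1. A cluster was taken as hairpins within 10 kb of each other with at least 3 tested hairpins, and 11 met that rule. The chromosome X cluster of mir-424, mir-503, mir-542 and mir-450 had 7 of 7 entries called higher in PC-3, with a median of 2.83. In it, miR-424-5p stood at 342, 410 and 455 CPM in PC-3 and at 20.4, 33.6 and 36.7 CPM in 22Rv1. The mir-23a, mir-27a and mir-24-2 cluster on chromosome 19 had 5 of 5 higher in PC-3 (median 2.32), and the mir-99b, let-7e and mir-125a cluster 6 of 6 (median 1.16). The mir-106b, mir-93 and mir-25 cluster in MCM7, which carries the growth-promoting relatives of miR-17, had 6 of 6 higher in 22Rv1 (median -1.12). In it, miR-25-3p stood at 5461, 6203 and 6726 CPM in PC-3 and at 14673, 15779 and 19680 CPM in 22Rv1. The counts of these 4 clusters were the same under the 4 scalings and DESeq2.

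Some other clusters were mixed or leaned on the scaling. The mir-17 to mir-92a-1 cluster in MIR17HG had 7 entries higher in PC-3 and 2 higher in 22Rv1 of 10, and 3 and 3 with library size alone. The CLCN5 intron cluster had 0 higher in PC-3 and 9 of 11 higher in 22Rv1 (median -0.73), with 7 to 11 across the scalings and DESeq2. The let-7a-1, let-7f-1 and let-7d cluster had 1 and 3 of 5, and its median of -0.14 turned to 0.04 with the authors' factors. The mir-183, mir-96 and mir-182 cluster did neither, with 4 of 5 higher in PC-3 (5 with the authors' factors) and 0 higher in 22Rv1. Mature miRNAs made by hairpins at several places, such as miR-24-3p and miR-19b-3p, were counted as 1 entry and are listed here at a single locus, so their origin cannot be told apart.

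**Figure D4:**
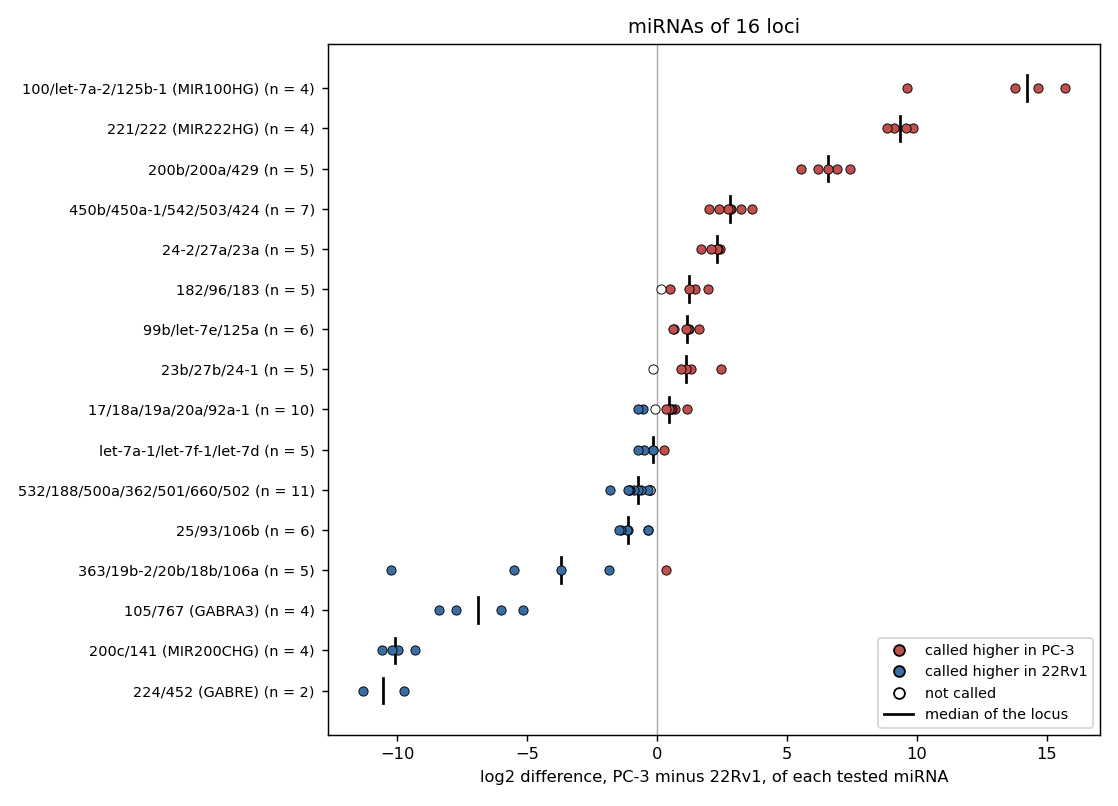
Log2 difference (PC-3 minus 22Rv1) of each tested miRNA, 1 row a locus, coloured by the edgeR call, with the median as a bar, for the 11 clusters and 5 host genes chosen after their values were seen. The MIR100HG and MIR222HG loci lie furthest toward PC-3 and the GABRE and MIR200CHG loci furthest toward 22Rv1. The chromosome X cluster of mir-363 spans 10.58 when miR-19b-3p, which also comes from chromosome 13, is included.

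Lists of miRNAs by known regulation or cell type were written with earlier results of these data known, so they are no independent test. They were read against the background of 41.4% higher in PC-3 and 48.8% higher in 22Rv1. Of miRNAs reported as repressed by the androgen receptor, 6 of 8 tested were called higher in PC-3 and 2 higher in 22Rv1, with a median of 9.35 beside -0.14 over all 498. The 6 are the arms of miR-100, miR-221 and miR-222, from the MIR100HG and MIR222HG loci already described above. The 2 are miR-99a-5p and let-7c-5p, of which 1 was no longer called with the authors' factors or DESeq2. Of miRNAs reported as induced by it, 16 of 26 were called higher in PC-3 and 9 higher in 22Rv1, with a median of 2.26. miR-148a and miR-141 were among the 9, and miR-21, miR-29a, miR-27a and the miR-200b and miR-200a arms were among the 16. Of mesenchymal or basal-associated miRNAs, 17 of 20 were called higher in PC-3 and 2 higher in 22Rv1 (median 8.37), with 15 and 4 when scaled by library size alone. miR-155-5p, an immune miRNA, was 1 of the 2, at 0 to 0.940 CPM in PC-3 and 5.78 to 12.2 CPM in 22Rv1. These lists share members, for example miR-100, miR-221 and miR-222. Entries under 5 CPM in every 22Rv1 library, whose direction the filter fixed, were 4 of the 8 repressed, 3 of the 26 induced and 8 of the 20 mesenchymal or basal-associated. The filter fixed the direction toward 22Rv1 for entries under 5 CPM in every PC-3 library. These were 2 of the 26 induced and 1 of the 20 mesenchymal or basal-associated, which was miR-155-5p.

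Several families went one way. The miR-181 family, with roles in lymphocyte and vascular signalling, had 8 of 8 entries higher in PC-3, led by miR-181a-5p at a median of 12835 against 3307 CPM. Of the 8, 1 was under 5 CPM in every 22Rv1 library, so the filter fixed its direction. miR-23, miR-27 and miR-24 had 9 of 10 higher in PC-3 and none higher in 22Rv1, and 9 and 1 with library size alone. The imprinted cluster of chromosome 14 had 6 tested entries, each under 5 CPM in every 22Rv1 library. They were taken as passing the filter through PC-3, which fixed the direction of their calls. The largest difference was that of miR-411-5p, which stood at 9.08, 20.6 and 25.3 CPM in PC-3 and at 0, 0.291 and 1.02 CPM in 22Rv1, and 13 of its 19 entries were below the tested level. The miR-30 family had 8 of 11 higher in PC-3 and none higher in 22Rv1, but 4 and 3 with library size alone. The miR-29 family divided by locus. miR-29a-3p, known for targeting collagens and DNA methyltransferases, had a median of 5891 CPM in PC-3 and 205 CPM in 22Rv1, and miR-29c-3p of chromosome 1 had 290 and 352 CPM with overlapping libraries.

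The miR-15 and miR-16 family, known for targeting BCL2 and cyclins, also divided. miR-424-5p and miR-503-5p were higher in PC-3, while miR-195-5p (67.6 CPM in PC-3, 1157 CPM in 22Rv1) and miR-497-5p (99.9 and 1310 CPM) of chromosome 17 were higher in 22Rv1. miR-16-5p, which held 91.3% of the seed's CPM in PC-3 and 90.1% in 22Rv1, stood at 20609, 24950 and 30561 CPM in PC-3 and at 33100, 40800 and 43273 CPM in 22Rv1. Neuronal or neuroendocrine-associated miRNAs were mixed as well, with 5 of 12 higher in PC-3 and 6 higher in 22Rv1. The let-7 family had 9 of 19 higher in PC-3 and 7 higher in 22Rv1, and 7 and 9 with library size alone. Of the 19, 1 was under 5 CPM in every 22Rv1 library, so the filter fixed its direction. miRNAs inside HOX clusters were mixed, with 4 of 9 higher in each line. Of these 9, 1 was under 5 CPM in every 22Rv1 library and 2 in every PC-3 library, which fixed their direction. miR-196b-5p of the HOXA cluster had a median of 946 CPM in PC-3 and 9.52 CPM in 22Rv1, and miR-196a-5p, made from the HOXB and HOXC clusters, had 50.6 and 505 CPM.

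Markers of the lines are given as a description. They were chosen with earlier results known and are among the largest differences above, so they are no independent check of the labels. Of the miRNAs taken as typical of androgen receptor-negative cells, miR-221-3p, miR-222-3p, miR-31-5p, miR-146a-5p and miR-130a-3p were higher in each of the 12 PC-3 libraries than in any 22Rv1 library. Those taken as typical of 22Rv1, miR-148a-3p, miR-375, miR-141-3p and miR-200c-3p, had the opposite pattern, while other members of the miR-200 family (miR-200b-3p, miR-200a-3p and miR-429) were higher in PC-3. Markers of other cell types were low with exceptions. Of 8 smooth muscle or stromal entries, 4 were tested, and the other 4 stayed at or below 8.15 CPM. miR-199b-5p and the identical entries miR-199a-3p and miR-199b-3p were called higher in 22Rv1, none above 24.5 CPM in any library. Of the 4 tested, 1 was under 5 CPM in every PC-3 library, so the filter fixed its direction. The mean summed level of the 8 entries was 149 CPM in PC-3 and 191 CPM in 22Rv1, but 1 PC-3 library held 1459 CPM. The other 11 PC-3 libraries held 22.2 to 46.8 CPM (mean 29.9), below the 136 to 294 CPM of 22Rv1. miR-143-3p was at 1427 CPM in PC-3 replicate 1 of the control of 5% O2, at 8.63 to 33.0 CPM in the other 11 PC-3 libraries and at 93.8 to 227 CPM in 22Rv1. It was not called with that library (log2 difference -0.05, adjusted p 0.96, edgeR), and without it the difference was -2.89 with a call toward 22Rv1. DESeq2, given all libraries, called miR-143-3p toward 22Rv1. Its default handling of outlying counts was left on, and whether the 1427 CPM value entered that call was not checked. Its partner miR-145-5p was at 6.58 CPM in that library and at most 0.861 CPM in the other PC-3 libraries. Leaving this library out kept 435 of the 449 calls with their direction. The blood markers miR-451a and miR-142-3p stayed at or below 6.44 CPM. Of the 4 tested entries of the blood list, 2 were called higher in PC-3 and 1 in 22Rv1, and the mean summed level of all 10 entries of the list was 690 CPM in PC-3 and 1962 CPM in 22Rv1. miR-486-5p, also made in muscle and other tissue, was at 288 to 383 CPM in PC-3 and at 1332 to 2606 CPM in 22Rv1. miR-126-5p of the same list averaged 307 CPM in PC-3 and 230 CPM in 22Rv1, and miR-126-3p 60.4 and 40.5 CPM. Both were called higher in PC-3, miR-126-5p not with library size alone.

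Summed by seed, 314 of 350 tested seeds were called (89.7%). Sequences were matched for 90.6% of the counts, so sums leave out unmatched entries, for example miR-130a-3p and miR-375. Among seeds with at least 2 entries and 1000 CPM, the sums furthest toward PC-3 were that of miR-221 and miR-222 (log2 difference 9.25, SE 0.13), that of miR-21 and miR-590 (4.13, SE 0.07) and that of miR-99 and miR-100. The last sum was 28651, 39383 and 46705 CPM in PC-3 and 2009, 2315 and 5104 CPM in 22Rv1. miR-100-5p held 86.0% of it in PC-3, and miR-99b-5p 97.9% of it in 22Rv1. The log2 difference of the sum was 3.94 (SE 0.15) where that of miR-100-5p was 15.72. The let-7 seed, the most abundant seed sum shown here for 22Rv1, had 120857, 140232 and 177666 CPM in PC-3 and 130873, 140484 and 210247 CPM in 22Rv1. These ranges overlapped, and the log2 difference was -0.10 (95% interval -0.26 to 0.06, adjusted p 0.22, edgeR). The miR-196 sum, noted after the values were seen, differed by 0.94 (SE 0.07), while its members differed by 6.65 and -3.42.

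The ratio of the arms of a hairpin does not depend on library scaling. It was tested with limma on log2 of the 5p over the 3p count, with 0.5 added to each, in the 59 hairpins whose arms both reached 20 CPM in each line. The ratio differed for 48 of 59 (81.4%), but by at least 2-fold for 6. Toward the 5p arm in PC-3, miR-335 had log2 ratios of -1.17 to -0.87 in PC-3 and -2.64 to -1.94 in 22Rv1 (difference 1.12, SE 0.07, adjusted p 1.1e-12, limma). miR-106b had ratios of -0.11 to 0.58 in PC-3 and -1.24 to -0.63 in 22Rv1 (difference 1.12, SE 0.07). The more abundant arm of miR-106b was therefore the 5p arm in PC-3 on average (458 against 377 CPM) and the 3p arm in 22Rv1 (580 against 1030 CPM).

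Toward the 5p arm in 22Rv1, miR-20a differed by -1.29 (SE 0.15) and miR-193a by -2.44 (SE 0.30, adjusted p 7.6e-08, limma). The miR-193a ratio in 22Rv1 reached 0.81 in the library that stood apart, where miR-193a-3p was at 62.6 CPM and in the other 10 at 418 to 827 CPM. Its median was -2.74 in 22Rv1 and -4.79 in PC-3, with no overlap. miR-574 had ratios of -0.50 to 0.08 in PC-3 and 0.51 to 1.09 in 22Rv1, and it and miR-32 also changed the arm that was more abundant on average, which made 3 such hairpins with miR-106b. The arms of miR-32 were nearly equal in 22Rv1, at 41.5 CPM (5p) and 41.0 CPM (3p) on average, and its median ratio there was -0.03.

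**Figure D5:**
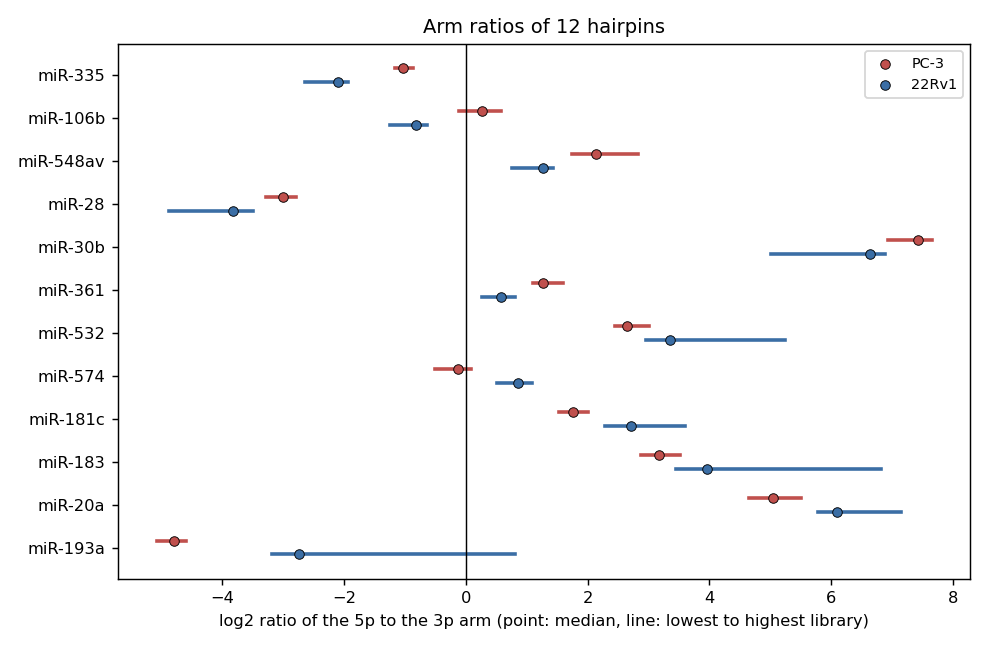
Log2 ratio of the 5p to the 3p arm for the 6 hairpins per direction with the largest called differences, with the median library as a point and the lowest to highest library as a line. The lines are separate for miR-335, miR-106b and miR-574 and overlap for miR-183 and miR-532, and the long 22Rv1 ranges of miR-193a and miR-183 end at the library of replicate 1 of the control of 5% O2.

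Some abundant miRNAs stood at similar levels. Among the 60 most abundant, the 8 smallest differences were those of miR-10a-5p, miR-20a-5p, let-7f-5p, miR-30d-5p, miR-378a-3p, let-7a-5p, miR-183-5p and miR-103a-3p. let-7a-5p, which represses RAS and MYC, stood at 67172, 80936 and 106638 CPM in PC-3 and at 75700, 83082 and 130840 CPM in 22Rv1 (log2 difference -0.13, 95% interval -0.31 to 0.05). miR-10a-5p, the HOXB relative of miR-10b-5p, stood at 18248, 20415 and 23916 CPM in PC-3 and at 16321, 18116 and 40167 CPM in 22Rv1. Its difference was 0.01 (95% interval -0.21 to 0.24) and was 0.14 with a call toward PC-3 without the 22Rv1 library that stood apart. Signs of such small differences depended on the scaling, since miR-10a-5p, miR-30d-5p, miR-103a-3p and the more abundant miR-22-3p were on the 22Rv1 side with library size alone. miR-191-5p, the most abundant miRNA of 22Rv1, stood at 96155 to 136068 CPM in PC-3 and at 108544 to 319203 CPM in 22Rv1. It was called higher in 22Rv1 (-0.35, SE 0.13, adjusted p 0.017, edgeR), a call that was lost with the authors' factors and with DESeq2.

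miR-210 is the miRNA most directly induced by hypoxia-inducible factor, and its level in normoxia sets the base for the hypoxia part of the series. miR-210-3p stood at 413, 653 and 778 CPM in PC-3 and at 860, 1250 and 1413 CPM in 22Rv1, without overlap (log2 difference -0.90, SE 0.08, adjusted p 3.1e-12, edgeR). miR-210-5p stood at 43.2, 73.1 and 97.9 CPM in PC-3 and at 77.9, 86.1 and 146 CPM in 22Rv1 (log2 difference -0.38, SE 0.11). The ranges of the 5p arm overlapped, and its call was lost with the authors' factors (-0.19).

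The line difference was also followed over the 6 control sets. Of the 449 called miRNAs, 418 had the same sign in all 6 sets. edgeR's quasi-likelihood test of the line by control set interaction called 0 of 498 (0%), with 11 at an unadjusted p below 0.05 and a lowest adjusted p of 0.97. Leaving out replicate 2 of the 22Rv1 control of 5% O2, which leaves the library that stood apart alone in its group, gave 22 calls, and leaving out replicate 2 of the PC-3 control of 5% O2 gave 1. For miR-100-5p the difference per set ran from 14.74 to 15.67, for miR-221-3p from 9.19 to 9.83, for miR-200c-3p from -10.15 to -9.56 and for miR-148a-3p from -7.27 to -6.79 (on the log2 scale with 0.5 CPM added). These ranges are narrow beside the differences. For miR-10b-5p it ran from 2.26 to 4.29, and the lowest of these was in the set that holds the 22Rv1 library that stood apart.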

How the data were processed

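Small RNA was sequenced from normoxia cultures of PC-3 and 22Rv1 cells. Per the labels' protocols, RNA was isolated with miRNeasy and made into TruSeq Small RNA libraries, cut from a gel at 140 to 160 bp, which sets the insert lengths counted. The submitters' processing notes name hg19 and FastQC, with the aligner and the counter not given in the sources used here. Raw counts per miRNA, as the authors deposited them (1006 entries), are the main values. The authors' second deposited table, in CPM, equals these counts times a constant per library (largest relative difference 2.1e-09) and served for its scaling factors. Of the entries, 24 in 9 sets had identical counts in every library, so such copies cannot be told apart.

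The 23 libraries were scaled together by TMM and tested with edgeR 4.0.16 (quasi-likelihood, robust, R 4.3.3) after a filter of 5 CPM in 10 libraries, with Benjamini-Hochberg adjustment over the 498 entries. Seed sums were tested in the same way, and arm ratios with limma 3.58.1. DESeq2 1.42.0, other scalings, filters, covariates and omitted libraries were alternatives. The edgeR test was tried on simulated counts first. Positions come from GENCODE 29 (GRCh38), matched by name for 1005 entries, and sequences from RefSeq. Fold bounds use a floor of 3 counts over a group, and intervals cover counting error only.

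The members and the 26 lists, written from general knowledge of these miRNAs, were chosen with earlier results of these data known. A rule picked up to 12 called miRNAs per direction by fold with at least 100 CPM and no overlap, and the 10 most abundant per line. It also picked up to 10 line-restricted ones per line and the 8 smallest differences among the 60 most abundant. Up to 4 per list by p, up to 6 arm ratios and 6 seeds per direction, and miR-210 were added. The text names only part of these and leaves out, for example, miR-34a-5p and miR-192-5p. Relatives and locus neighbours of the picked miRNAs were chosen after their values were seen.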

Additional observations from a re-analysis of the deposited data

How the results depend on the processing

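Of the 449 calls, 269 held their direction and call under every setting and omission run, and 377 under every scaling and DESeq2. Without a filter on low counts 777 were called (326 higher in PC-3 and 451 in 22Rv1, at least 2-fold 242 and 344, and 559 seeds). A filter of 20 CPM gave 100 calls of at least 2-fold toward 22Rv1, and hairpins with both arms at 100 CPM gave 20 arm calls. Fewer or more entries were tested in these. Leaving out each library gave 440 to 454 calls, 204 to 217 toward PC-3 and 225 to 247 toward 22Rv1. At least 2-fold it gave 134 to 143 and 143 to 159, with 45 to 48 arm ratios, 308 to 318 seeds and 0 to 22 interactions.

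Directions reversed for small differences. miR-22-3p was at -0.15 with library size alone and -0.0151 with upper quartile scaling. miR-10a-5p was at -0.28 and -0.20, and miR-30d-5p at -0.26 and -0.11, under the same settings. miR-103a-3p was at -0.17 and -0.0173, and at -0.0495 without the control set of 2% O2. The cause was not tested. Of 147 results picked by the naming rule, not all of them named in the text, 131 kept direction and call throughout and 16 did not. miR-191-5p lost its call with the authors' factors, DESeq2 and 11 omissions. miR-143-3p ran from -2.94 to 0.20.

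Replicate numbers do not pair the libraries by label. Deviations correlated above 0.1 in 1 of 11 same-numbered pairs (-0.08 to 0.16). With control set and replicate number as a block, 447 were called (205 and 242, at least 2-fold 136 and 157), with 313 seeds and 47 arm ratios. Depth limits the low line of the restricted miRNAs named, where 0 to 9 counts were seen in all its libraries.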

Other observations

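Counts by chromosome are given as a description, beside the 41.4% of all tested entries higher in PC-3 and the 48.8% higher in 22Rv1. On chromosome 12 the median log2 difference was -3.08, with 3 of 18 tested entries higher in PC-3 and 15 higher in 22Rv1. On chromosome 14 it was 2.73, with 15 and 4 of 19, and on chromosome 16 it was -1.46, with 7 and 14 of 21. On the X chromosome it was -0.25, with 25 and 27 of 57, close to those shares. Entries of 1 cluster are not independent, so these medians rest on fewer loci than entries. The 6 tested entries of the chromosome 14 imprinted cluster were under 5 CPM in every 22Rv1 library, so the filter fixed their direction. The same holds toward 22Rv1 for 2 of the 4 MIR200CHG entries of chromosome 12, under 5 CPM in every PC-3 library. Entries of MIR222HG, GABRE and GABRA3 on the X chromosome were also fixed in this way.

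Within 22Rv1, replicate 1 of the control of 5% O2 was high for miR-191-5p at 319203 CPM (108544 to 169551 in the other 10), for miR-182-5p at 113163 CPM (50639 to 65424) and for miR-183-5p at 25597 CPM (8273 to 12503). It was low for miR-30b-5p at 1077 CPM (2638 to 4296).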
